A study of Mus musculus with 20 samples.

Results

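Loss of Eed in hepatocytes was compared with wild type in regenerating mouse liver, across all expressed genes. The samples were the 10 of the 20 libraries of the series that were collected after partial hepatectomy (PHx), an operation in which most of the liver is removed and the remaining lobes regrow. They comprise 5 EedHepKO and 5 wild-type (WT) mice, with 1 mouse of each genotype at 30 h, 2 at 40 h and 2 at 48 h after surgery. All mice were males aged 2 months, labelled with the same C57BL6/J background, on standard chow. WT mice were C57BL/6J bought from a vendor, and the labels give them neither transgene nor floxed allele. EedHepKO mice carried Cre under the albumin promoter together with loxP sites at exons 3 and 6 of Eed, and were inbred from a cross of those lines. Genotype and colony of origin therefore cannot be told apart. Poly(A) RNA came from liver lobes 4, 5 and 6. Lobes 1, 2 and 3 of the mice, removed at surgery, gave the other 10 libraries (baseline), which were used here for the estimate of spread and for one comparison of stages.

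EED is a core subunit of polycomb repressive complex 2 (PRC2), which methylates lysine 27 of histone H3 and holds genes of other lineages and of earlier development silent. It binds the methylated mark and is needed for the activity of the catalytic subunits EZH1 and EZH2. In the adult liver, hepatocytes are quiescent until tissue is lost, and then enter the cell cycle nearly together while they keep making plasma proteins, bile and metabolic enzymes. The albumin promoter drives Cre in hepatocytes and in the hepatoblasts from which both hepatocytes and bile duct cells arise, so duct cells can also lose Eed, while liver cells of other origin keep it. A bulk library holds RNA of all of them.

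PRC2 acts in mammals mainly at gene starts rich in the dinucleotide CG, and the DNA before the start of 3 genes that rose and 3 that fell is printed here for that reason. The windows hold 200 bases, from 250 to 51 before the start (RefSeq, GRCm38.p6), 5′ to 3′ along the gene, with every CG in capitals. Cdkn2a (the upstream of its starts in the table), Igf2bp3 and Hoxd9 were higher in EedHepKO, and the major urinary protein genes Mup3, Mup7 and Mup17 were lower.
Cdkn2a, chr4:89294670-89294869, minus strand: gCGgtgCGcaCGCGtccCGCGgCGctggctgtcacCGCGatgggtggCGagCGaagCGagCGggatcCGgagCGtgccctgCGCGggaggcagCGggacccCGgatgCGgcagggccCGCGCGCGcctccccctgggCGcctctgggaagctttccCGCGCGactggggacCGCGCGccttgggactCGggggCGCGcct
Igf2bp3, chr6:49215005-49215204, minus strand: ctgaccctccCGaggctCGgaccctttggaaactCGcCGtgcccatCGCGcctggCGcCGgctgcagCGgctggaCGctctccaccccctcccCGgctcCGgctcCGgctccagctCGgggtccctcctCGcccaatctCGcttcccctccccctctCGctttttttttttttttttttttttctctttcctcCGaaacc
Hoxd9, chr2:74697513-74697712, plus strand: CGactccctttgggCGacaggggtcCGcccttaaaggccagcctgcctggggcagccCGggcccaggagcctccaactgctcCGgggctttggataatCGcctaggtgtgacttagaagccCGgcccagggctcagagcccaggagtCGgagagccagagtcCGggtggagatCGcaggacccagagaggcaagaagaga
Mup3, chr4:62087368-62087567, minus strand: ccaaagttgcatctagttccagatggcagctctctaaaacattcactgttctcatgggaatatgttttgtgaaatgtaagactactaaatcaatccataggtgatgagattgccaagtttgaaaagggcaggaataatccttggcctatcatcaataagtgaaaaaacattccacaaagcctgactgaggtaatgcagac
Mup7, chr4:60070526-60070725, minus strand: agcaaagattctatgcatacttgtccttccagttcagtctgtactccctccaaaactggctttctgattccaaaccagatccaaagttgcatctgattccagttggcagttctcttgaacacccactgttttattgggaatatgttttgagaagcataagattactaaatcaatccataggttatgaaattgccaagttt
Mup17, chr4:61595883-61596082, minus strand: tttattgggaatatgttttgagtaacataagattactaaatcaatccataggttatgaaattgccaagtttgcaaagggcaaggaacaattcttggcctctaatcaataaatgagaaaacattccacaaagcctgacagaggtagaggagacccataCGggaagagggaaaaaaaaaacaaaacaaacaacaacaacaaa
CG occurred 34 times before this start of Cdkn2a, 18 times before Igf2bp3 and 10 times before Hoxd9. At least as many CG were held by 0.813%, 12.4% and 29.3%, respectively, of all 32851 windows of this length in the table, where the median was 4. The window of the other start of Cdkn2a, chr4:89282243-89282442, held 7 CG, and 38.3% of windows held at least as many. The windows of Mup3 and Mup7 held 0 CG and that of Mup17 held 1. The longest stretch shared by the Mup7 and Mup17 windows was 46 bases; it was 20 bases between Mup3 and Mup7 and 22 between Mup3 and Mup17. These counts describe 7 windows and say nothing of whether PRC2 bound there.

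The 10 libraries held 21634890 to 30461351 counts each, and 14661 genes passed the filter on low counts. Values are given as counts per 1000000 counts of the scaled library (CPM), in the order 30 h, 40 h, 40 h, 48 h and 48 h (WT replicates 1 to 5; EedHepKO replicates 12, 10, 11, 7 and 8). Eed, at chr7:89954654-89980983 (mm10) on the minus strand, was at 23.2, 16.8, 15.2, 14.6 and 22 CPM in the WT libraries and 5.82, 4.69, 4.86, 4.97 and 2.75 CPM in the EedHepKO libraries. The groups did not overlap, and Eed fell by 1.99 on the log2 scale (SE 0.22, adjusted p = 4.39e-06). Among the 11 PRC2 subunit genes tested, Jarid2, an accessory subunit, was the other one called (log2 1.25, adjusted p = 0.00443, and 0.0611 when the 10 libraries were fitted alone). Ezh2, the catalytic subunit of dividing cells, was at 19, 3.52, 5.29, 4.22 and 23.7 CPM in the WT libraries and 1.23, 22.2, 10.8, 5.63 and 10.1 CPM in the EedHepKO libraries. The hepatocyte markers Alb, Ttr, Apoa1, Serpina1a, Cps1 and Cyp2e1 were abundant in every library, with Alb between 27206 and 85043 CPM. EedHepKO replicate 10 and WT replicate 5 stood apart from the other libraries of their genotype and time in cell cycle genes, and counts without them are given where they moved a list's count by over 1.5 times and by more than 2 genes.

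Across the genome, 2342 genes were higher in EedHepKO (16% of those tested) and 1202 were lower (8.2%), by edgeR's quasi-likelihood test with Benjamini-Hochberg adjustment at 0.05 in a fit of all 20 libraries. With the 10 libraries fitted alone, 1269 genes were higher (8.66%) and 244 lower (1.66%). Of these, 1266 and 244 were called in both fits (8.64% and 1.66%), none in opposite directions. With time as a term in that fit, 970 were higher and 209 lower. The time term was followed for 178 genes, which do not include every gene described here. Those described here and called in both fits but not with the time term were Gata4, Btg2, Sesn2, Ccnd2, Slc16a10, Hk1, Lpl, Hp, Nr5a2, Col3a1, Lox, Pdgfra, Wwtr1 and Hbegf. Among all genes tested, called or not, the genotypes did not overlap for 1033 that were higher (7.05%) and 435 that were lower (2.97%). A log2 change of at least 1 in size was reached by 1942 of the genes called higher (13.2%) and by 468 of those called lower (3.19%). With scaling by library size alone, the typical gene moved up by 0.38 on the log2 scale, and higher genes made up 92.9% of the calls in place of 66.1%, so every direction here is relative to the scaling of edgeR's trimmed mean of M values. Leaving out 1 library moved the counts to between 1934 and 2883 higher and between 827 and 2121 lower, and the largest counts came without EedHepKO replicate 10. Without WT replicate 5 the counts were 2045 and 939, and with library size alone 3897 and 296. Counts of list members under these settings stand beside these totals.

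**Figure D1:**
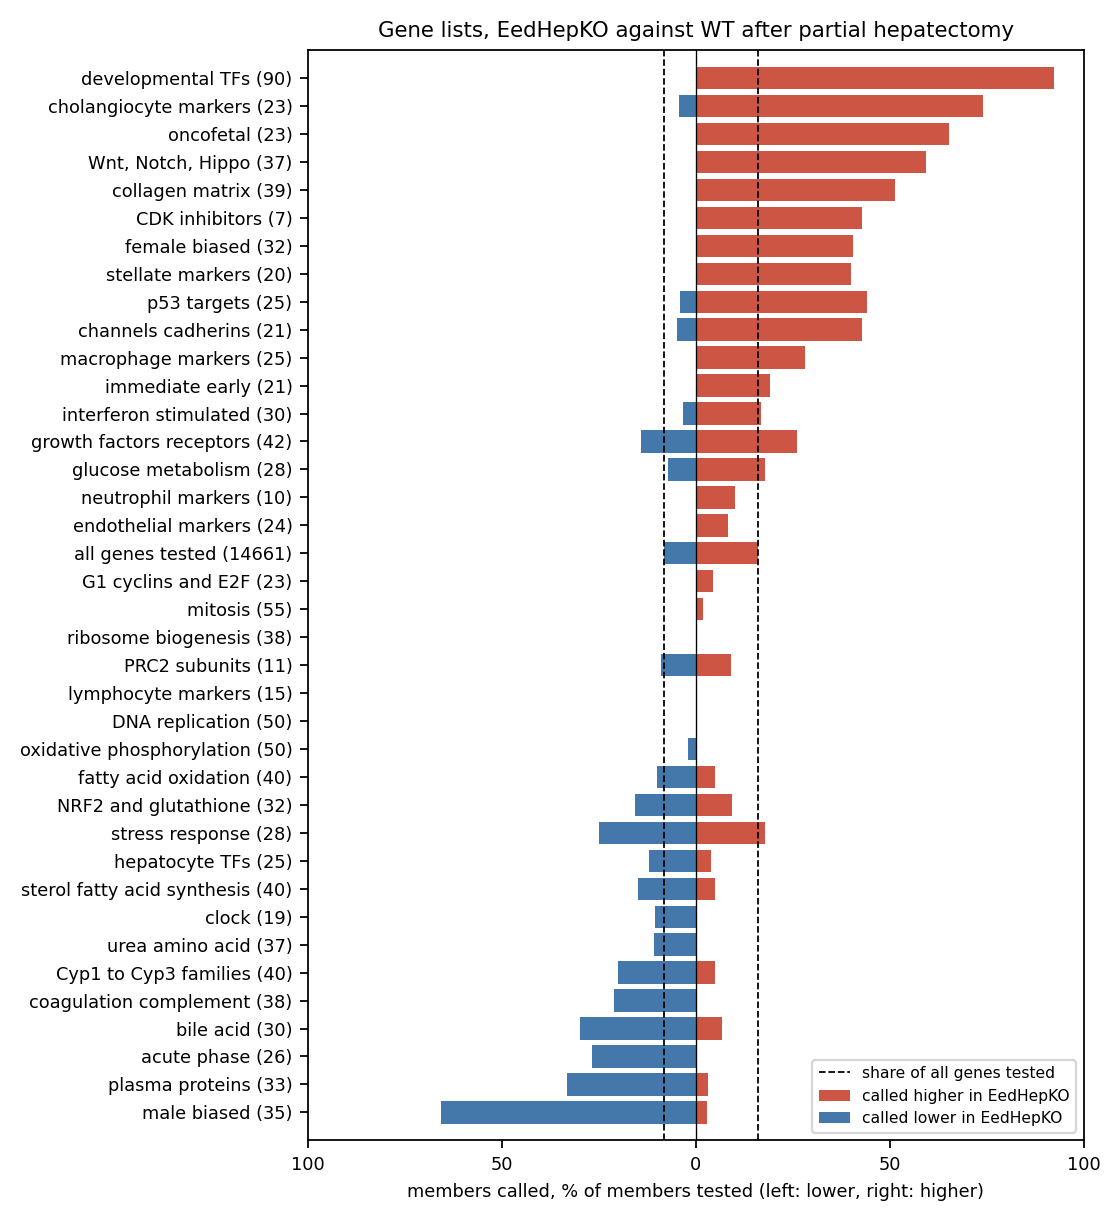
Share of the tested members of 37 gene lists called higher (right, red) or lower (left, blue) in EedHepKO after PHx, in % of members tested, with the number tested in brackets. Dashed lines mark the shares of all genes tested, 16% higher and 8.2% lower; developmental transcription factors have the longest red bar (92.2%) and male-biased genes the longest blue one (65.7%).

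Transcription factors of embryonic patterning had the highest share of genes called higher among the 37 lists. Of 165 members of the list, 90 passed the filter, 83 rose (92.2%, against 16% of all genes) and none fell; 75 were also called with the 10 libraries alone. Passing the filter needed counts in at least one group, so members silent in WT passed because EedHepKO expressed them; over all 165 members the pooled counts were higher in EedHepKO for 154, lower for 1, and 10 had no count. The median log2 change of the tested members was 6.93, or 5.83 with the 40 members without WT counts set to their lower bound, against -0.01 over all genes. Hoxa10, a homeobox gene of posterior patterning at chr6:52231197-52240854, was at 0 CPM in all 5 WT libraries and 11.8, 14.6, 4.73, 16.1 and 13.5 CPM in the EedHepKO libraries. Pax3, a regulator of neural crest and muscle precursors at chr1:78101267-78197134, was at 0 CPM in all 5 WT libraries and 19, 3.32, 12.8, 16.7 and 11.7 CPM in the EedHepKO libraries. Both were without a single WT count and present in each EedHepKO library, at least 524-fold and 549-fold higher when WT is set at 3 counts over the group.

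Factors of other organs showed the same on and off pattern. Otx2 of the forebrain and eye, Pitx1 of the hindlimb, Sim2 of the midline and Hoxd9 of the Hox cluster on chromosome 2 had 0 WT counts and means of 9.95, 8.73, 9.85 and 8.92 CPM in EedHepKO. Their lower bounds were 429.7-fold, 377-fold, 425-fold and 385-fold. Tbx15, a T-box factor of limb and fat, rose from a level close to 0 (0, 0, 0, 0.0355 and 0 CPM) to 13.7, 7.25, 10.3, 23.1 and 14.5 CPM (log2 10.11, SE 0.60, adjusted p = 1.01e-07). Gata2, a factor of blood and endothelium, rose from 0.543 ± 0.117 CPM in WT to 12.9 ± 10.1 CPM in EedHepKO (log2 4.55, SE 0.60, adjusted p = 2.72e-05). Gata4, a factor that adult liver already expresses, was at 17.8, 12.1, 15.4, 10.8 and 19.6 CPM in WT and 32.5, 24.9, 25, 26.3 and 21.1 CPM in EedHepKO (log2 0.77). Beyond transcription factors, 21 members of a list of ion channels and cadherins passed the filter, of which 9 rose (42.9%) and 1 fell, 5 and none in both fits. Over all 44 members, 11 had no WT count, and the pooled counts were higher in EedHepKO for 34, lower for 8 and absent for 2. Among them Cacna1h, a T-type calcium channel subunit, rose from 0.0362 ± 0.0596 CPM in WT to 5.53 ± 5.55 CPM in EedHepKO (log2 7.02, SE 1.04, adjusted p = 8.46e-05).

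Genes of fetal liver and liver tumours rose as well. Of 23 tested members of the oncofetal list, 15 rose (65.2%), none fell, and 12 were called in both fits, with a median log2 change of 3.44. The 3 insulin-like growth factor 2 mRNA-binding proteins, which bind and stabilise transcripts in fetal tissue, all rose. Igf2bp1, at chr11:95957163-96005940, was at 0 CPM in all 5 WT libraries and 14.1, 3.36, 18.4, 24.1 and 32.5 CPM in the EedHepKO libraries, at least 799-fold higher. Igf2bp3, at chr6:49085223-49214957 and with the CG-rich window printed above, was at 0.305, 0.261, 0.381, 0.0355 and 0.172 CPM in the WT libraries and 11.4, 25.8, 46.7, 26.9 and 44.7 CPM in the EedHepKO libraries. No EedHepKO library overlapped the WT range for either gene, and Igf2bp3 changed by log2 7.07 (SE 0.50, adjusted p = 3.91e-07). Igf2bp2 rose from 1.93 ± 0.657 CPM in WT to 16.1 ± 4.58 CPM in EedHepKO (log2 3.05).

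A pair of imprinted genes of one locus, the fetal growth factor Igf2 and the noncoding RNA H19, varied widely within EedHepKO. H19 was at 0.174, 0, 0.152, 0 and 0.0343 CPM in the WT libraries and 2.65, 30.3, 101, 3.33 and 18.3 CPM in the EedHepKO libraries. Igf2 was at 0.0436, 0.217, 0.114, 0.0709 and 0.103 CPM in the WT libraries and 2.08, 12.6, 38.1, 7.85 and 19 CPM in the EedHepKO libraries. Both genes were highest in EedHepKO replicate 11 at 40 h and lowest in replicate 12 at 30 h, yet every EedHepKO library lay above every WT library (log2 8.69 and 7.13, adjusted p = 2.12e-05 and 9.46e-06). Gpc3, a cell-surface proteoglycan of fetal liver, rose from 0.423 ± 0.275 CPM in WT to 59.7 ± 50.8 CPM in EedHepKO (log2 7.12, SE 0.64, adjusted p = 7.1e-07), and Scd2, a fatty acid desaturase of fetal liver, from 4.34 ± 2.8 CPM in WT to 68.3 ± 58 CPM in EedHepKO (log2 3.97, SE 0.62, adjusted p = 0.000125). Afp, the fetal albumin homologue, was at 6.24, 4.7, 14.9, 0.354 and 3.5 CPM in the WT libraries and 2.08, 35, 150.5, 1.23 and 51.5 CPM in the EedHepKO libraries; it was called in the fit of 20 libraries (log2 3.02, adjusted p = 0.023) but not with the 10 alone (adjusted p = 0.138). The groups overlapped, and the call was lost without WT replicate 5 or EedHepKO replicate 11 (adjusted p up to 0.122).

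**Figure D2:**
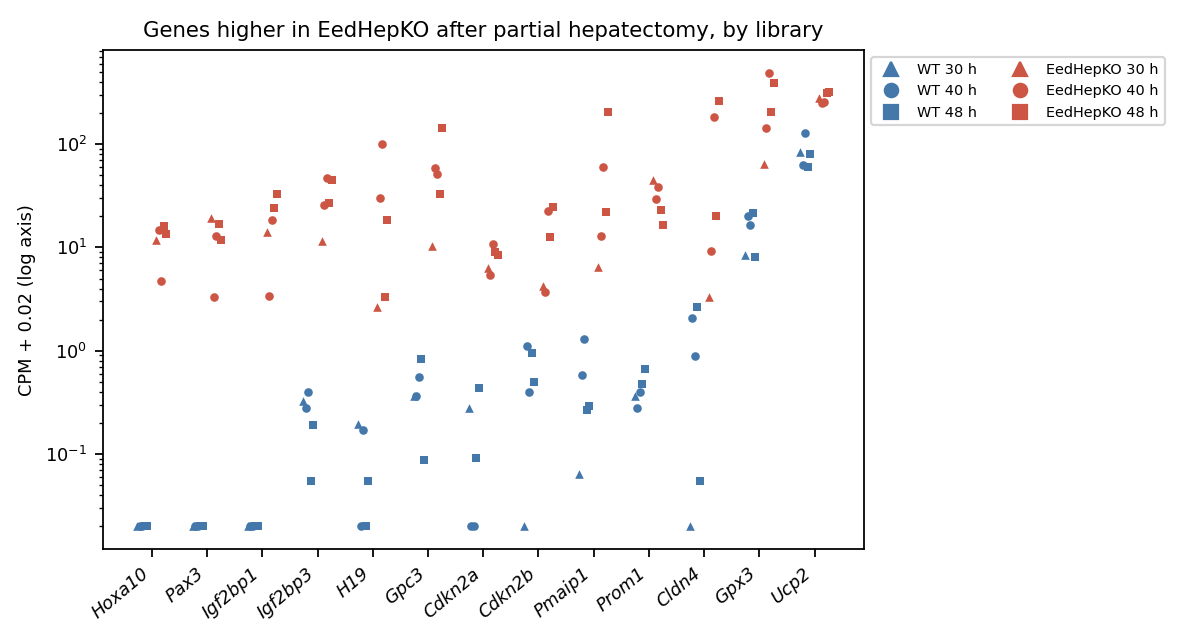
CPM + 0.02 on a log axis for 13 genes that were higher in EedHepKO (red) than in WT (blue) after PHx; each point is 1 library and its shape gives the time. Hoxa10, Pax3 and Igf2bp1 are at 0 counts in every WT library, and for all 13 genes each red point lies above each blue one.

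Inhibitors of cyclin-dependent kinases and genes induced by p53 rose in part. Of 7 CDK inhibitor genes tested, Cdkn2a, Cdkn2b and Cdkn1c rose (42.9%, against 16% of all genes), all in both fits, and 4 were not called. Cdkn2a, at chr4:89274471-89294653, encodes p16INK4a and p19ARF, which these counts per gene do not separate; it was at 0.262, 0, 0, 0.0709 and 0.412 CPM in the WT libraries and 6.34, 5.34, 10.8, 9.05 and 8.41 CPM in the EedHepKO libraries (log2 5.68, SE 0.66, adjusted p = 7.06e-06). Cdkn2b, its neighbour encoding p15INK4b, was at 0, 1.09, 0.381, 0.922 and 0.481 CPM in the WT libraries and 4.21, 3.66, 22.3, 12.5 and 24.7 CPM in the EedHepKO libraries (log2 4.54, SE 0.71, adjusted p = 0.000147). Neither gene overlapped between genotypes. Cdkn1c, which encodes p57 and is imprinted, rose from 0.461 ± 0.369 CPM in WT to 4.75 ± 3.73 CPM in EedHepKO (log2 3.34). Cdkn1a, which encodes p21 and is induced in regenerating liver, was at 52.2, 329.7, 104, 305 and 74.7 CPM in the WT libraries and 412, 154, 270.0, 358 and 325 CPM in the EedHepKO libraries, with overlapping groups (log2 0.81, adjusted p = 0.264).

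Of 25 p53 target genes, 11 rose (44.0%, against 16% of all genes) and 1 fell, with 9 and none in the fit of 10 libraries. The median log2 change was 0.79. Pmaip1, which encodes the pro-apoptotic protein NOXA, was at 0.0436, 0.565, 1.29, 0.248 and 0.275 CPM in the WT libraries and 6.44, 12.8, 59.3, 21.8 and 205 CPM in the EedHepKO libraries (log2 6.96, SE 0.92, adjusted p = 2.72e-05). The EedHepKO values differed widely, from 6.44 at 30 h to 205 in replicate 8 at 48 h, and all exceeded the highest WT value. Phlda3, an inhibitor of AKT, rose from 2.89 ± 1.89 CPM in WT to 35 ± 19.9 CPM in EedHepKO (log2 3.60). Sesn2, a sestrin of the stress response, rose from 13.4 ± 6.03 CPM in WT to 45.7 ± 26.7 CPM in EedHepKO (log2 1.77), and Btg2, an antiproliferative gene, from 74.7 ± 53.9 CPM in WT to 353 ± 291 CPM in EedHepKO (log2 2.24). Sesn2 and Btg2 overlapped between groups, since EedHepKO replicate 10 was within the WT range. Mdm2 and Ccng1, both classical p53 targets, were not called, at 46.7 to 50.2 CPM and 49.8 to 69.3 CPM (means of WT and EedHepKO; adjusted p = 0.63 and 0.101). Ei24 was the member that fell (log2 -0.61; adjusted p = 0.0932 with the 10 libraries alone).

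Cell cycle gene levels varied widely among mice, and among those sharing genotype and time the gap was widest between the 2 WT mice at 48 h. Over all times, none of the 50 DNA replication genes and 1 of the 55 mitosis genes (1.82%) was called. That gene, Mybl2, was not called with the 10 libraries alone (adjusted p = 0.131) and was lost without WT replicates 1, 2, 3 or 5 or EedHepKO replicates 8 or 10 (adjusted p up to 0.158). The summed CPM of the mitosis list in WT was 1082 at 30 h, 71.5 and 232 at 40 h, and 63.7 and 4280 at 48 h. In EedHepKO it was 94.9 at 30 h, 2402 and 379 at 40 h, and 120.5 and 190 at 48 h. Thus 1 WT mouse at 30 h and 1 at 48 h, and 1 EedHepKO mouse at 40 h, carried high mitotic transcript levels, and the other WT mouse at 48 h had the lowest level of all 10. The replication list summed to 2760, 266, 419, 318 and 1150 CPM in WT and to 458, 2301, 834, 434 and 462 CPM in EedHepKO, and so peaked in the 30 h WT library and in EedHepKO replicate 10. Mki67, a proliferation antigen, was at 82.3, 0.217, 14.2, 0.284 and 328 CPM in the WT libraries and 3.65, 119, 25.3, 3.42 and 8.17 CPM in the EedHepKO libraries. Mcm5, a subunit of the replicative helicase, was at 170.3, 1.91, 14.4, 5.25 and 57.1 CPM in the WT libraries and 2.75, 129, 39.2, 3.33 and 6.46 CPM in the EedHepKO libraries. Neither was called (adjusted p = 0.452 and 0.762). Of the mitosis genes, the topoisomerase Top2a had WT and EedHepKO means of 40.9 and 25.9 CPM (log2 -0.66) and the cyclin Ccnb1 of 30.2 and 11.9 CPM (log2 -1.35), and neither was called. The sign of the log2 difference of Mki67, Top2a and Ccnb1 turned without WT replicate 5, to 0.43, 0.26 and 2.06, and that of Mcm5 without WT replicate 1, to 0.88. Without EedHepKO replicate 10, 10 of 55 mitosis genes and 7 of 50 replication genes were lower in EedHepKO, and none was higher. In that fit 2121 of the 14661 genes tested were lower and 2883 higher.

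The difference was tested at 40 h and at 48 h. With 1 mouse per genotype, 30 h was not tested. At 40 h, 29 of 50 replication genes and 2 of 55 mitosis genes were higher in EedHepKO, where 8.61% of all genes were higher and 4.68% lower. At 48 h, 5 and 20 were lower, where 13.7% of all genes were higher and 10.7% lower. The change of the genotype effect from 40 h to 48 h was called for 21 replication genes and 26 mitosis genes, all of them toward lower, against 1.61% (toward higher) and 3.11% (toward lower) of all genes. The median log2 difference was 2.32 for the replication list and 3.86 for the mitosis list at 40 h, and -0.96 and -4.08 at 48 h. Without WT replicate 5, neither list had a call at 48 h, and the 48 h medians turned to 0.45 and 2.64, the sign of those at 40 h. With 2 mice per genotype and time, the other counts hung on single animals too. Without EedHepKO replicate 10, 8 replication genes and no mitosis gene were called at 40 h. For the change between times, at most 1 replication gene and no mitosis gene were called without WT replicate 2, WT replicate 5, EedHepKO replicate 7 or EedHepKO replicate 10. The counts for replication and mitosis were 14 and 3 without EedHepKO replicate 8, and 26 and 41 without WT replicate 3. They rose to 45 and 52 without WT replicate 4 and to 39 and 43 without EedHepKO replicate 11, all toward lower. Without WT replicate 5 the median change went from -3.48 to -1.69 for replication and from -7.94 to -0.56 for mitosis. Without WT replicate 2, 1 replication gene was called at 40 h. Without EedHepKO replicate 7 or 8, at most 1 mitosis gene and 3 replication genes were called at 48 h, and without WT replicate 4, 50 and 23 were, all lower. The counts also moved with the method. With library size alone, 39 replication and 12 mitosis genes were higher at 40 h, 1 and 10 were lower (1 and 0 higher) at 48 h, and 14 and 12 changed between times. With DESeq2 these were 36 and 21, 13 and 36, and 38 and 47. Ccnd1, the cyclin that drives hepatocytes out of quiescence, was at 298, 42.7, 156, 4.32 and 175 CPM in the WT libraries and 102, 506, 237, 50 and 48.3 CPM in the EedHepKO libraries (adjusted p = 0.661). Ccnd2, its relative of low abundance in adult liver, was 1 of 23 genes of the G1 cyclin and E2F list called, rising from 6.13 ± 5.04 CPM in WT to 28.1 ± 18.6 CPM in EedHepKO (log2 2.20).

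**Figure D3:**
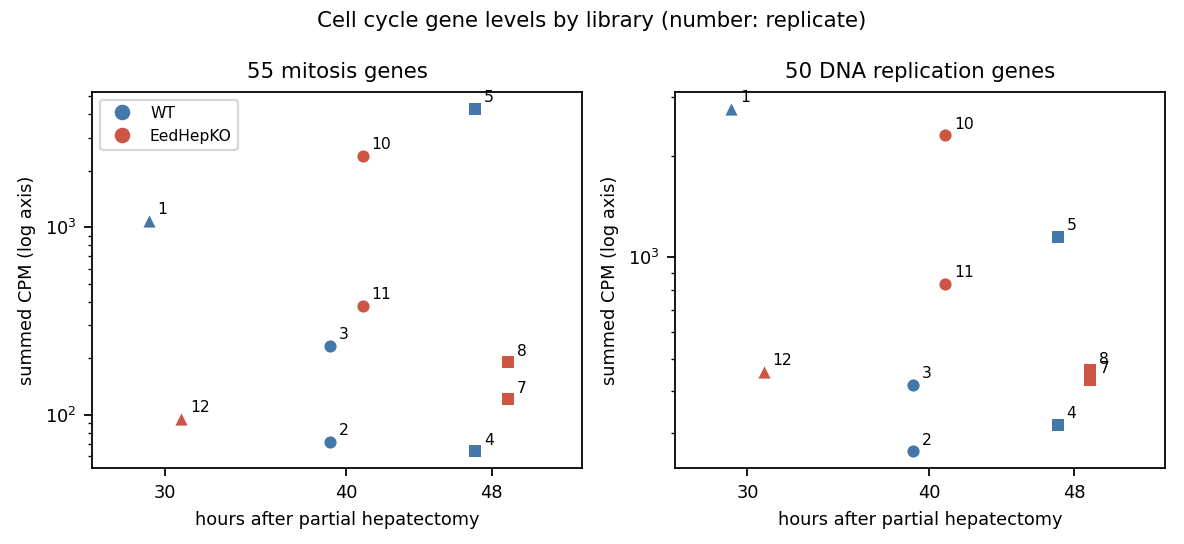
Summed CPM on a log axis of 55 mitosis genes (left) and 50 DNA replication genes (right) against hours after PHx; each point is 1 library labelled with its replicate number, blue for WT and red for EedHepKO. The mitosis sums of mice sharing genotype and time differ up to the span from 63.7 to 4280 CPM between WT replicates 4 and 5 at 48 h.

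Epithelial genes that mark bile duct cells rose in EedHepKO. Of 23 tested cholangiocyte markers, 17 rose (73.9%) and 1 fell, 14 and 1 of them also in the 10 libraries alone, with a median log2 change of 3.02. Summed over the list, the level ranged from 210 to 492 CPM in WT and from 502 to 1589 CPM in EedHepKO. Prom1, a membrane glycoprotein of progenitor cells, was at 0.349, 0.261, 0.381, 0.461 and 0.652 CPM in the WT libraries and 44.7, 29.3, 38.5, 23.2 and 16.5 CPM in the EedHepKO libraries (log2 6.15, SE 0.37, adjusted p = 6.19e-09). Cldn4, a tight junction protein, was at 0, 2.04, 0.875, 2.66 and 0.0343 CPM in the WT libraries and 3.31, 9.23, 181, 20.2 and 260.4 CPM in the EedHepKO libraries (log2 6.39, SE 1.17, adjusted p = 0.000575). Prom1 was high in all 5 EedHepKO libraries, whereas Cldn4 ranged from 3.31 at 30 h to 260 in replicate 8 at 48 h; neither overlapped with WT. Ezr, which links membrane and actin, rose from 7.7 ± 3.34 CPM in WT to 90.2 ± 68.7 CPM in EedHepKO (log2 3.55), Epcam from 0.965 ± 0.664 CPM in WT to 18.1 ± 13 CPM in EedHepKO (log2 4.22) and the duct keratin Krt19 from 1.85 ± 0.962 CPM in WT to 15 ± 19.3 CPM in EedHepKO (log2 3.02). Sox9, a factor of duct identity, was called over 20 libraries (log2 2.15) but not over the 10 alone (adjusted p = 0.0766), and was lost without WT replicates 1 or 5 or EedHepKO replicate 7 (adjusted p up to 0.134). Among the defining duct genes, Cftr was at or below 0.27 CPM and Sctr at or below 0.389 CPM in every library. Aqp1, Pkhd1 and Dcdc2a were not called; Pkhd1, for example, ranged from 1.7 to 8.45 CPM in WT and from 3.69 to 22.5 CPM in EedHepKO. Onecut2, a factor of hepatocytes and ducts, was the member that fell (log2 -1.10, adjusted p = 0.000856). Here as elsewhere in bulk liver, more cells of a type and more RNA per cell cannot be told apart.

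Several abundant genes outside these groups rose. Ucp2, a mitochondrial carrier, was at 83.5, 62.1, 128, 60.6 and 79.8 CPM in the WT libraries and 277, 251, 253, 312 and 318 CPM in the EedHepKO libraries (log2 1.77, SE 0.25, adjusted p = 4.69e-05), with little spread within EedHepKO. Gpx3, the glutathione peroxidase of plasma, was at 8.5, 20.1, 16.6, 21.4 and 8 CPM in the WT libraries and 63.5, 144, 489, 204 and 392 CPM in the EedHepKO libraries (log2 4.11, SE 0.55, adjusted p = 2.93e-05). Plat, tissue plasminogen activator, was at 0.698, 10.7, 6.13, 8.01 and 0.824 CPM in the WT libraries and 63.4, 11.9, 243, 326 and 629 CPM in the EedHepKO libraries (log2 5.59, SE 0.96, adjusted p = 0.000326). None of the 3 overlapped between genotypes, although Plat in EedHepKO replicate 10 (11.9 CPM) was close to the highest WT value (10.7 CPM). Ndrg1, a stress-induced gene, rose from 9.88 ± 7.48 CPM in WT to 158 ± 141 CPM in EedHepKO, Mfge8, which bridges dying cells to phagocytes, from 29.8 ± 18.9 CPM in WT to 151 ± 47.4 CPM in EedHepKO, and Rhob, a small GTPase, from 28.7 ± 7.88 CPM in WT to 134 ± 81.4 CPM in EedHepKO (log2 4.00, 2.34 and 2.23). The lysosomal protease Lgmn, the aromatic amino acid transporter Slc16a10 and the matrix protein Sparc rose by log2 1.18, 1.10 and 1.06.

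Of 28 glucose metabolism genes 5 rose (17.9%), a share near the 16% of all genes, and 2 fell. Those that rose were the hexokinases Hk1 and Hk2, the pyruvate kinase Pkm, the platelet-type phosphofructokinase Pfkp and the glucose transporter Slc2a1. Hk2 was at 0.872, 0.783, 1.14, 0.957 and 0.618 CPM in the WT libraries and 7.01, 3.55, 11.1, 21.7 and 43.1 CPM in the EedHepKO libraries. Pkm was at 26.2, 29.8, 51.8, 23.3 and 17.2 CPM in the WT libraries and 101, 64.6, 150.0, 149 and 182 CPM in the EedHepKO libraries. Both genes separated the genotypes without overlap (log2 4.30 and 2.13, adjusted p = 3.09e-05 and 2.2e-05). Slc2a1 was not called with the 10 libraries alone (adjusted p = 0.0532). Gbe1, the glycogen branching enzyme, and Pfkfb1, the liver form of the enzyme that sets fructose 2,6-bisphosphate, were lower over 20 libraries, but not over the 10 alone (adjusted p = 0.0651 and 0.215); Pfkfb1 was lost without WT replicates 1, 3 or 5 or EedHepKO replicates 7, 8, 11 or 12 (adjusted p up to 0.107).

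Genes that male mouse liver expresses above female liver made up the group with the highest share of lower genes. Of 35 tested, 23 fell (65.7%, against 8.2% of all genes) and 1 rose, 14 and none in both fits, with a median log2 change of -1.88, or -1.49 under scaling by library size. The major urinary proteins, pheromone carriers made by hepatocytes under pulsatile growth hormone, were its largest family. Mup3, at chr4:62083476-62087342, was at 5308, 6884, 4545, 5777 and 3802 CPM in the WT libraries and 1089.6, 422, 305, 482 and 363 CPM in the EedHepKO libraries (log2 -3.31, SE 0.34, adjusted p = 2.33e-06). Mup17 was at 13666, 13842, 7782, 12609 and 6088 CPM in the WT libraries and 2664, 1635, 428, 4053 and 1703 CPM in the EedHepKO libraries (log2 -2.36, SE 0.44, adjusted p = 0.000651). Mup7 was at 4966, 6270.2, 3615, 7227 and 2765 CPM in the WT libraries and 325, 268, 72.4, 1387 and 621 CPM in the EedHepKO libraries (log2 -3.22, SE 0.62, adjusted p = 0.000895). In all 3 every EedHepKO library lay below every WT library. Of the 14 Mup genes tested 12 fell; Mup1, Mup11, Mup12, Mup14, Mup15, Mup19 and Mup21 fell by between 2.41 and 4.62 on the log2 scale. Mup20 was not called, at 2326, 1944, 2362, 1619 and 1219.6 CPM in the WT libraries and 3082, 669.7, 468, 1112 and 624 CPM in the EedHepKO libraries (adjusted p = 0.234), and the 30 h EedHepKO library held the highest value of the 10. Without that library Mup20 was called lower (log2 -1.40, adjusted p = 0.00157), as it was without both 30 h libraries (log2 -1.31, adjusted p = 0.00435). Several members of this family are near-identical copies, so counts of uniquely mapped reads may be split or lost among them.

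Outside the Mup cluster, 2 male-biased enzymes had the largest falls. Hsd3b5, a steroid dehydrogenase at chr3:98618634-98630252, was at 98.8, 0.391, 0.647, 0.496 and 23.4 CPM in the WT libraries and 0.379, 0, 0.0278, 0.15 and 0 CPM in the EedHepKO libraries (log2 -8.00, adjusted p = 0.000924), and was not called by limma with the block (log2 -5.91, adjusted p = 0.0712). Elovl3, an elongase of very long fatty acids at chr19:46131897-46135694, was at 101, 18.2, 45.9, 9.93 and 115 CPM in the WT libraries and 2.04, 0.153, 0.556, 0.15 and 0.703 CPM in the EedHepKO libraries (log2 -6.38, adjusted p = 2.1e-05). WT levels of both genes ranged widely, with the 30 h library and replicate 5 at 48 h high, while all EedHepKO libraries were at or below 2.04 CPM. Serpina1e, a serpin with male bias in some strains, fell from 4649 ± 996 CPM in WT to 604 ± 447 CPM in EedHepKO (log2 -2.94, SE 0.44, adjusted p = 8.94e-05). Ihh, a hedgehog ligand, was the member that rose (log2 2.44), but not with the 10 libraries alone (adjusted p = 0.0657), and was lost without EedHepKO replicate 11 (adjusted p up to 0.0663).

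Of 32 female-biased genes tested, 13 rose (40.6%), 10 of them in both fits, 19 were not called and none fell, with a median log2 change of 1.02. At least 3 of the 32 had no WT count after PHx and so could be called only higher. Over all 40 members in the annotation, the pooled counts were higher in EedHepKO for 34, lower for 5 and absent for 1. Sult2a1, a sulfotransferase of bile acids and steroids at chr7:13796246-13837409, was at 0, 0.0435, 0.0381, 0.0355 and 0.0343 CPM in the WT libraries and 23.2, 42.7, 10.4, 50.4 and 39.8 CPM in the EedHepKO libraries (log2 9.87, SE 0.77, adjusted p = 8.57e-07). Its neighbour Sult2a2 was at 0 CPM in all 5 WT libraries and 14.9, 20.1, 5.7, 14.2 and 14 CPM in the EedHepKO libraries, at least 595-fold higher. These paralogs went from 0 or 1 count per WT library to clear expression in all EedHepKO libraries. Ntrk2, a neurotrophin receptor, rose from 0.992 ± 1.18 CPM in WT to 58.7 ± 32.6 CPM in EedHepKO (log2 5.88). Cyp2b10, a drug-inducible cytochrome P450, was at 6.98, 27.3, 10.3, 17.7 and 3.57 CPM in the WT libraries and 148, 150.0, 177, 30.4 and 27.4 CPM in the EedHepKO libraries (log2 3.02, SE 0.74, adjusted p = 0.00576), with the 48 h EedHepKO libraries lower than those at 30 h and 40 h. Lpl, lipoprotein lipase, rose from 18 ± 12 CPM in WT to 88 ± 37.7 CPM in EedHepKO (log2 2.29). Cyp17a1, Cyp2a4 and Sult1e1 were among those not called. The Y-linked helicase gene Ddx3y, which marks males, was at 47.7, 56.1, 44.6, 51.1 and 58.3 CPM in the WT libraries and 59, 10.9, 43.2, 77.1 and 82.2 CPM in the EedHepKO libraries and was not called (adjusted p = 0.912). It was detected in all 10 libraries and was lowest in EedHepKO replicate 10, and its part in the results of these lists was not tested.

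**Figure D4:**
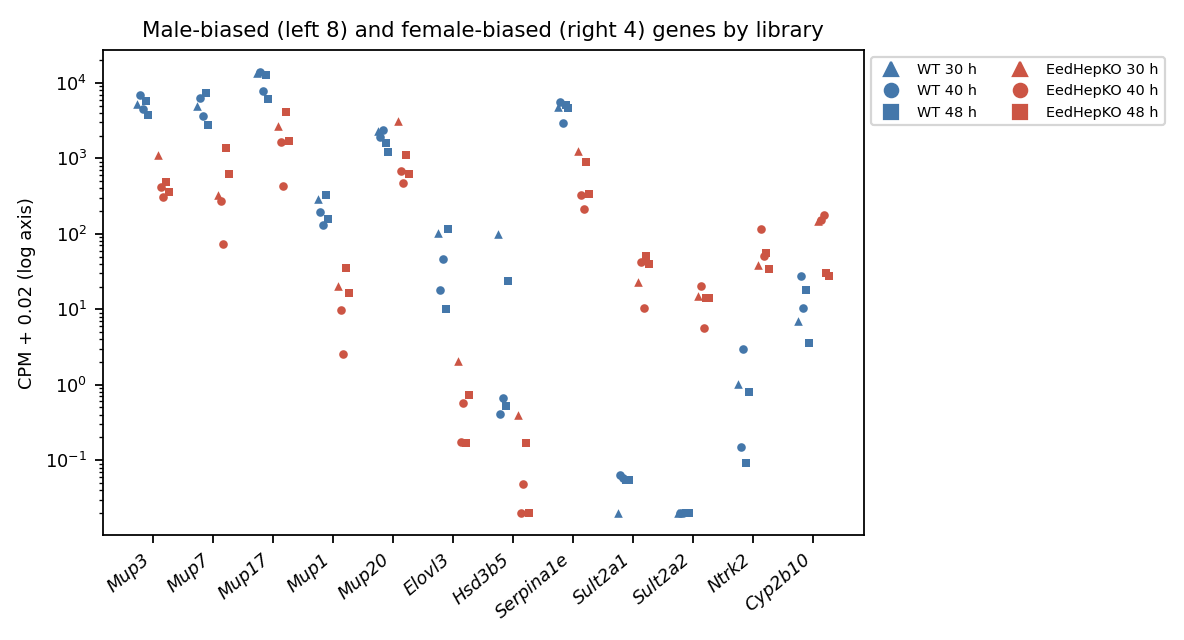
CPM + 0.02 on a log axis of 8 male-biased genes (left) and 4 female-biased genes (right) in the 5 WT (blue) and 5 EedHepKO (red) libraries after PHx, with the shape of a point giving the time. EedHepKO lies below WT for the male-biased genes except Mup20, whose groups overlap, and above WT for the 4 female-biased ones.

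More genes of secreted plasma proteins and of acute-phase proteins were called lower than higher. Most members of each list were not called, and fewer calls held in both fits. Of 33 plasma protein genes, 11 fell (33.3%) and 1 rose, 3 and 1 of them in the 10 libraries alone; the median log2 change was -0.60, or -0.21 under scaling by library size. Alb was not called, at 46787, 85043, 71315, 48385 and 68455 CPM in the WT libraries and 66619, 42148, 28693, 29524 and 27206 CPM in the EedHepKO libraries (log2 -0.72, adjusted p = 0.0695). Alb was called lower by DESeq2 (log2 -0.70, adjusted p = 0.0237), by limma with the block (log2 -0.76, adjusted p = 0.029), without EedHepKO replicate 12 (log2 -1.005, adjusted p = 0.0066) and without the 30 h libraries (log2 -1.10, adjusted p = 0.00498). Serpina1a, an alpha-1 antitrypsin, fell from 2585 ± 590.3 CPM in WT to 1065 ± 436 CPM in EedHepKO (log2 -1.28, SE 0.24, adjusted p = 0.000831). Apom, an apolipoprotein of high-density particles, fell from 185 ± 68.6 CPM in WT to 57.8 ± 34.6 CPM in EedHepKO (log2 -1.68, SE 0.33, adjusted p = 0.00105). Serpina7, thyroxine-binding globulin, was the member that rose, from 30.4 ± 12.1 CPM in WT to 77.5 ± 17.4 CPM in EedHepKO (log2 1.35, SE 0.34, adjusted p = 0.00665). Of 38 coagulation and complement genes, 8 fell (21.1%), 2 of them in both fits. Among these was F11, coagulation factor XI (89.5 to 15.5 CPM, means of WT and EedHepKO, log2 -2.53).

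Acute-phase genes, induced in hepatocytes by cytokines such as interleukin-6 after surgery, included some large falls. Of 26 tested, 7 fell (26.9%) and none rose, 4 of them in both fits. Saa1 was at 6472, 3322, 3316, 1408 and 1938 CPM in the WT libraries and 517, 1687, 496, 534 and 201 CPM in the EedHepKO libraries (log2 -2.26, adjusted p = 0.0127). Saa2, its near-identical neighbour, was at 6886, 3396, 3158, 1418 and 1792 CPM in the WT libraries and 561, 1635, 483, 549 and 194 CPM in the EedHepKO libraries (log2 -2.28, adjusted p = 0.0155; lost without WT replicate 1 (adjusted p up to 0.05)). Each overlapped between groups through EedHepKO replicate 10. In the edgeR fit without the 30 h libraries neither Saa1 nor Saa2 was called (adjusted p = 0.0715 and 0.0833). Apcs, serum amyloid P, was at 323, 305, 439, 269.9 and 164 CPM in the WT libraries and 28.1, 65.2, 56.4, 64.9 and 57.8 CPM in the EedHepKO libraries (log2 -2.46, SE 0.28, adjusted p = 6.14e-06), and Hp, haptoglobin, at 9458, 4706, 10718, 5134 and 4482 CPM in the WT libraries and 3349, 3560.2, 1967, 3399 and 1707 CPM in the EedHepKO libraries (log2 -1.30, SE 0.29, adjusted p = 0.00276). Neither Apcs nor Hp overlapped.

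Bile acid genes that fell included enzymes of synthesis and conjugation and transporters. Of 30 tested, 9 fell (30.0%) and 2 rose, 5 and 2 in both fits. Baat, which conjugates bile acids, was at 133, 231, 187, 315 and 167 CPM in the WT libraries and 95.5, 82.5, 46.9, 44.6 and 45.6 CPM in the EedHepKO libraries (log2 -1.71, SE 0.25, adjusted p = 6.49e-05). Abcb4, the canalicular phospholipid flippase, was at 498, 1353, 823, 811 and 351 CPM in the WT libraries and 214, 290.5, 330.1, 131 and 279 CPM in the EedHepKO libraries (log2 -1.62, SE 0.29, adjusted p = 0.000476). Hsd3b7 and Acox2, enzymes of the synthetic pathway, fell from 249.9 ± 145 CPM in WT to 93.6 ± 29.9 CPM in EedHepKO and from 326 ± 112 CPM in WT to 172 ± 15.6 CPM in EedHepKO. The sinusoidal transporter Slco1a4 fell from 99.5 ± 36.3 CPM in WT to 35.4 ± 16.9 CPM in EedHepKO (log2 -1.49). The 2 that rose were Abcc4, a basolateral exporter (1.45 to 5.74 CPM, log2 1.98), and Abcg5, a sterol exporter (41 to 82 CPM, log2 1.00). Cyp7a1, the rate-limiting enzyme of bile acid synthesis, was at 48.2, 0.0435, 0.457, 0.213 and 70.8 CPM in the WT libraries and 0.663, 60.7, 3.75, 0.0899 and 0.11 CPM in the EedHepKO libraries. It was high in the libraries of WT replicates 1 and 5 and EedHepKO replicate 10 and low in the rest, and was not called (adjusted p = 0.686). Without EedHepKO replicate 10 it was called lower (log2 -4.36, adjusted p = 0.0283). These are the 3 libraries with the highest mitosis sums; whether the 2 are related was not tested.

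Other hepatocyte lists were counted the same way. Of 25 hepatocyte transcription factors, 3 fell (12%, against 8.2% of all genes) and 1 rose, 2 and none in both fits; Hnf4a and Cebpa were not called (log2 -0.49 and -0.33). Nr5a2, a nuclear receptor of bile acid and cholesterol metabolism, fell from 47.3 ± 12.8 CPM in WT to 23.3 ± 7.88 CPM in EedHepKO (log2 -1.02, SE 0.26, adjusted p = 0.00639), a call lost under scaling by library size. Among cytochromes of families 1 to 3, 8 of 40 fell (20.0%) and 2 rose, 2 and 2 of them in both fits, those that rose being Cyp2b9 and Cyp2b10. Against 8.2% of all genes lower and 16% higher, 4 of 37 urea cycle and amino acid genes fell (10.8%) and none rose. Of 40 sterol and fatty acid synthesis genes 6 fell (15%) and 2 rose (5%), and of 40 fatty acid oxidation genes 4 fell (10%) and 2 rose (5%); of these 18 calls, 1 held in the 10 libraries alone (Acot3, higher). Of 50 oxidative phosphorylation genes 1 fell, and of 38 ribosome biogenesis genes none was called. Without EedHepKO replicate 10, 14 of 50 oxidative phosphorylation genes, 8 of 40 of fatty acid oxidation and 13 of 38 of coagulation and complement fell. In the same fit 4 of 38 genes of ribosome biogenesis rose, where 2121 of the 14661 genes tested fell and 2883 rose. Without WT replicate 5, 1 gene of sterol and fatty acid synthesis and 3 of coagulation and complement fell, where 939 of all genes tested did. With library size alone no gene of fatty acid oxidation or of sterol and fatty acid synthesis fell, and 4 cytochromes, 5 coagulation and complement genes and 4 acute-phase genes did. In that fit 8 of 38 genes of ribosome biogenesis, 4 of 33 plasma protein genes and 3 of 26 acute-phase genes rose. Over all 14661 genes tested, 296 fell and 3897 rose in it.

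Of 28 genes of the stress list, 7 fell (25%) and 5 rose (17.9%, near the 16% of all genes), 3 and 2 of them in both fits. With library size alone 2 fell and 7 rose, without EedHepKO replicate 10 11 fell and 7 rose, and without WT replicate 5 4 fell and 3 rose. Over all 14661 genes tested, these fits had 296 lower and 3897 higher, 2121 and 2883, and 939 and 2045. Hsp90b1, the chaperone GRP94, fell from 804 ± 141 CPM in WT to 371 ± 84.5 CPM in EedHepKO (log2 -1.12, SE 0.29, adjusted p = 0.0083), with a call lost under scaling by library size. Dnajc3, a co-chaperone, fell from 294 ± 37.8 CPM in WT to 151 ± 28 CPM in EedHepKO (log2 -0.97, SE 0.20, adjusted p = 0.00195), and Calr, a lectin chaperone, from 1015 ± 223 CPM in WT to 519 ± 139 CPM in EedHepKO (log2 -0.97, SE 0.20, adjusted p = 0.00187). Asns, asparagine synthetase, rose from 4.38 ± 1.94 CPM in WT to 12.8 ± 2.47 CPM in EedHepKO (log2 1.54, SE 0.40, adjusted p = 0.00851). Trib3, Psat1 and Phgdh rose over 20 libraries but not over the 10 alone (Trib3 adjusted p = 0.085, Psat1 adjusted p = 0.16). Trib3 was lost without WT replicates 1, 3 or 5 or EedHepKO replicates 7, 8 or 11 (adjusted p up to 0.121), and Psat1 lost without WT replicates 1, 3 or 5 or EedHepKO replicates 7 or 8 (adjusted p up to 0.15). Hspa5, the main chaperone BiP, was not called (log2 -0.52). In the oxidative stress list 3 of 32 genes rose (9.38%, below the 16% of all genes), Gpx3 among them. A further 5 fell (15.6%, against 8.2% of all genes). Among these was Gclm, a subunit that makes glutathione, from 202 ± 24.1 CPM in WT to 113 ± 27.6 CPM in EedHepKO. In both fits 3 rose and 2 fell, and with library size alone 2 fell.

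Of 39 collagen and matrix genes, 20 rose (51.3%), 10 of them in both fits, 19 were not called and none fell. Their sum, 2767 to 4436 CPM in WT and 3941 to 4410 CPM in EedHepKO, overlapped between genotypes. Col3a1, a fibrillar collagen, was at 29, 21.8, 45.5, 14.4 and 43.9 CPM in the WT libraries and 55.9, 108, 102, 69.3 and 47.6 CPM in the EedHepKO libraries (log2 1.31, SE 0.32, adjusted p = 0.00587). Col1a2 rose from 10.1 ± 2.62 CPM in WT to 27.7 ± 10.6 CPM in EedHepKO (log2 1.46), and Lox, which cross-links collagen, from 1.21 ± 0.713 CPM in WT to 11.6 ± 11.1 CPM in EedHepKO (log2 3.27). With the time term neither Col3a1 (adjusted p = 0.0601) nor Lox (adjusted p = 0.178) was called, and Lox was not called by limma with the block (adjusted p = 0.0512). Col1a1 was called over 20 libraries (log2 1.46) but not over the 10 alone (adjusted p = 0.0632), and was lost without WT replicates 1, 2 or 4 or EedHepKO replicates 10 or 11 (adjusted p up to 0.0684). Of 20 stellate markers, 8 rose (40.0%), 5 of them in both fits, and none fell, and their sum was 338 to 555 CPM in WT and 670 to 957 CPM in EedHepKO; with library size alone 13 rose. Pdgfra, a receptor of fibroblasts, rose from 7.72 ± 4.49 CPM in WT to 24.6 ± 10.1 CPM in EedHepKO (log2 1.67), while Lrat, the retinol esterase that defines quiescent stellate cells, was at 7.98, 4.78, 10.9, 2.48 and 6.01 CPM in the WT libraries and 2.27, 10.2, 12.1, 5.21 and 7.73 CPM in the EedHepKO libraries (adjusted p = 0.703). The part of stellate cell number in the matrix result was not tested.

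Of 25 macrophage markers, 7 rose (28%) over 20 libraries and none over the 10 alone, and 2 rose without WT replicate 5; the sums, 171 to 648 CPM in WT and 335 to 715 CPM in EedHepKO, overlapped. C1qb, a complement component of macrophages, rose from 27.8 ± 12.6 CPM in WT to 52.7 ± 8.22 CPM in EedHepKO (adjusted p = 0.0151, and 0.106 with the 10 libraries). Clec4f, which defines Kupffer cells, was not called, at 29.5 to 43.9 CPM (means of WT and EedHepKO). Of 24 endothelial markers 2 rose (8.33%, below the 16% of all genes), Cdh5, an endothelial cadherin, and Flt4, the lymphatic VEGF receptor (13.2 to 38.8 CPM, log2 1.56). The other 22 were not called, the sinusoidal marker Stab2 among them (24 to 20.4 CPM). In both fits 1 rose, where 8.64% of all genes did. With library size alone 5 rose, where 3897 of the 14661 genes tested did. None of 15 lymphocyte markers and 1 of 10 neutrophil markers was called.

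In the list of Wnt, Notch and Hippo signalling 22 of 37 genes rose (59.5%) and none fell, 14 of them in both fits. Wnt11, a noncanonical ligand, was at 0, 0, 0, 0.142 and 0 CPM in the WT libraries and 20.3, 0.534, 1.64, 14.9 and 2.94 CPM in the EedHepKO libraries (log2 7.84, SE 1.23, adjusted p = 0.000288), and was high at 30 h and in 1 library at 48 h. Wnt4 and Wnt5a, ligands of the same family, rose from 0.86 ± 0.312 CPM in WT to 4.98 ± 1.7 CPM in EedHepKO and from 2.13 ± 1.18 CPM in WT to 9.3 ± 2.74 CPM in EedHepKO. The receptor Notch1 rose from 11.1 ± 4.16 CPM in WT to 44 ± 23 CPM in EedHepKO (log2 1.99) and its ligand Jag1 from 3.3 ± 1.02 CPM in WT to 9.56 ± 3.44 CPM in EedHepKO (log2 1.54). Tead2, a partner of YAP and TAZ on DNA, was at 0.654, 0.696, 0.951, 0.284 and 1.06 CPM in the WT libraries and 6.67, 11.6, 12.6, 15.9 and 16.4 CPM in the EedHepKO libraries (log2 4.10, SE 0.35, adjusted p = 3.76e-07). Wwtr1, which encodes TAZ, rose from 23.4 ± 6.04 CPM in WT to 55.3 ± 22.1 CPM in EedHepKO (log2 1.24), whereas Yap1 was not called (95.2 to 101 CPM). The Wnt targets Axin2 and Lgr5 were not called (log2 -0.78 and -0.94).

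Receptors and ligands of growth factors split by direction: 11 of 42 rose (26.2%) and 6 fell (14.3%), 8 and none in both fits; with library size alone 17 rose and 2 fell. Igf1r, the receptor of insulin-like growth factors that adult hepatocytes scarcely express, was at 0.218, 0.304, 0.152, 0.461 and 0.584 CPM in the WT libraries and 5.21, 5.72, 11, 13 and 12.1 CPM in the EedHepKO libraries (log2 4.74, SE 0.39, adjusted p = 3.29e-07). Erbb2 was at 0.741, 0.87, 0.837, 0.496 and 0.481 CPM in the WT libraries and 3.65, 4.58, 52.7, 10.7 and 27.3 CPM in the EedHepKO libraries (log2 4.85, SE 0.63, adjusted p = 2.2e-05). Every EedHepKO library exceeded every WT library for both receptors. Fgfr1 rose from 10.1 ± 2.98 CPM in WT to 40.2 ± 28.4 CPM in EedHepKO and Hbegf, a ligand of EGFR, from 3.9 ± 4.61 CPM in WT to 83.7 ± 81.4 CPM in EedHepKO (log2 1.99 and 4.43). Egfr, Met, Ghr and Igf1, the main hepatocyte receptors and hormone of regeneration and growth, were lower over 20 libraries but not over the 10 alone (Egfr adjusted p = 0.0601, Met 0.108, Ghr 0.158, Igf1 0.0781). Met and Ghr were not called under scaling by library size, and Ghr was lost without WT replicates 1 or 5 or EedHepKO replicates 7 or 8 (adjusted p up to 0.131). Of 21 immediate early genes 4 rose (19%, near the 16% of all genes), 3 of them in both fits, with Klf4, a zinc-finger factor, at 2.27, 7.05, 3.08, 3.86 and 2.23 CPM in the WT libraries and 65.1, 6.75, 12.8, 64.4 and 58.6 CPM in the EedHepKO libraries (log2 3.49, SE 0.61, adjusted p = 0.000414). Of 30 interferon-stimulated genes 5 rose (16.7%), a share near that of all genes (16%), and 1 fell; Ifit1 was the one called in both fits (log2 3.15). The number that rose was 14 with library size alone, 12 without EedHepKO replicate 10 and 2 without WT replicate 5. Over all genes tested, 3897, 2883 and 2045 rose in these fits. Of 19 clock genes, Clock and Rora fell (10.5%, near the 8.2% of all genes), 1 of them in both fits; Clock was at 56.4, 47.8, 66.2, 49.4 and 112 CPM in the WT libraries and 23.2, 16.8, 25.7, 28.4 and 30 CPM in the EedHepKO libraries (log2 -1.42, SE 0.28, adjusted p = 0.00102). With library size alone 3 of the 19 clock genes rose, where 3897 of the 14661 genes tested did.

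The genotype effect after PHx was compared with that at baseline by an interaction in the fit of 20 libraries. It differed for 57 genes (0.389%), 24 toward higher (0.164%) and 33 toward lower (0.225%) after PHx. With the mouse as a block over the 9 mice whose numbers link both samples, 2 and 5 genes were called. Without EedHepKO replicate 10 the counts rose to 419 (2.86%) and 293 (2.0%), 4.86% in all. The acute-phase gene Saa2 was one of them: at baseline it had means of 14.3 ± 6.69 CPM in WT and 102.6 ± 110 CPM in EedHepKO, and after PHx 3330.0 ± 2162 and 685 ± 552 CPM. Thus the baseline effect was log2 2.84 and that after PHx -2.28, a difference of -5.13 (adjusted p = 0.0176, and 0.233 with the mouse block). Saa1 behaved alike (difference -4.22, adjusted p = 0.0418, and 0.286 with the block). Apcs and Abcb4 had WT means of 300.1 and 767 CPM after surgery and 75.9 and 262 CPM before it, while EedHepKO had 54.5 and 249 CPM after surgery and 54.0 and 379 CPM before it.

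Other genes differed more toward higher after PHx than at baseline. Igf2 was at 0.046 to 0.72 CPM in WT and 0.332 to 2.02 CPM in EedHepKO at baseline, and its effect after PHx exceeded that at baseline by log2 5.06 (adjusted p = 0.0454). Prss8, a membrane serine protease of epithelia, was at 2.88, 4.57, 2.28, 3.37 and 2.23 CPM in the WT libraries and 6.15, 7.17, 116, 17.1 and 108 CPM in the EedHepKO libraries after PHx, with baseline means of 6.04 and 4.09 CPM (difference 4.61, adjusted p = 0.029). Depp1, a fasting-induced gene, had WT means of 336 CPM at baseline and 21.3 CPM after PHx, without overlap, and EedHepKO means of 201 and 156 CPM, with overlapping values (difference 3.61, adjusted p = 0.0176). Igsf3 had a difference of 3.92. Zbtb7c had one of 3.36 and was lower in EedHepKO at baseline (means of 6.69 and 2.34 CPM, log2 -1.51, adjusted p = 0.0364). In the opposite sense Gldn, Slpi and Ifi27l2b, called higher in EedHepKO at both stages over 20 libraries, had fitted differences of -6.21, -3.79 and -3.64. Their WT means were 0, 0.119 and 2.25 CPM at baseline and 0.573, 10.3 and 24.9 CPM after PHx. Since Gldn had no WT count at baseline, its fitted difference is no bound; with that group set at 3 counts it was -3.55. After PHx Slpi was not called with the 10 libraries alone (adjusted p = 0.143) or in 6 of the 10 fits without 1 library, and Ifi27l2b was not called with the 10 alone (adjusted p = 0.0716), with overlapping groups. With the mouse block these 8 genes had adjusted p between 0.0712 and 0.355. When 1 library was left out, the highest adjusted p of these 8 genes, Saa1, Saa2, Apcs and Abcb4 ran from 0.019 for Ifi27l2b to 0.0941 for Igf2 and Igsf3.

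**Figure D5:**
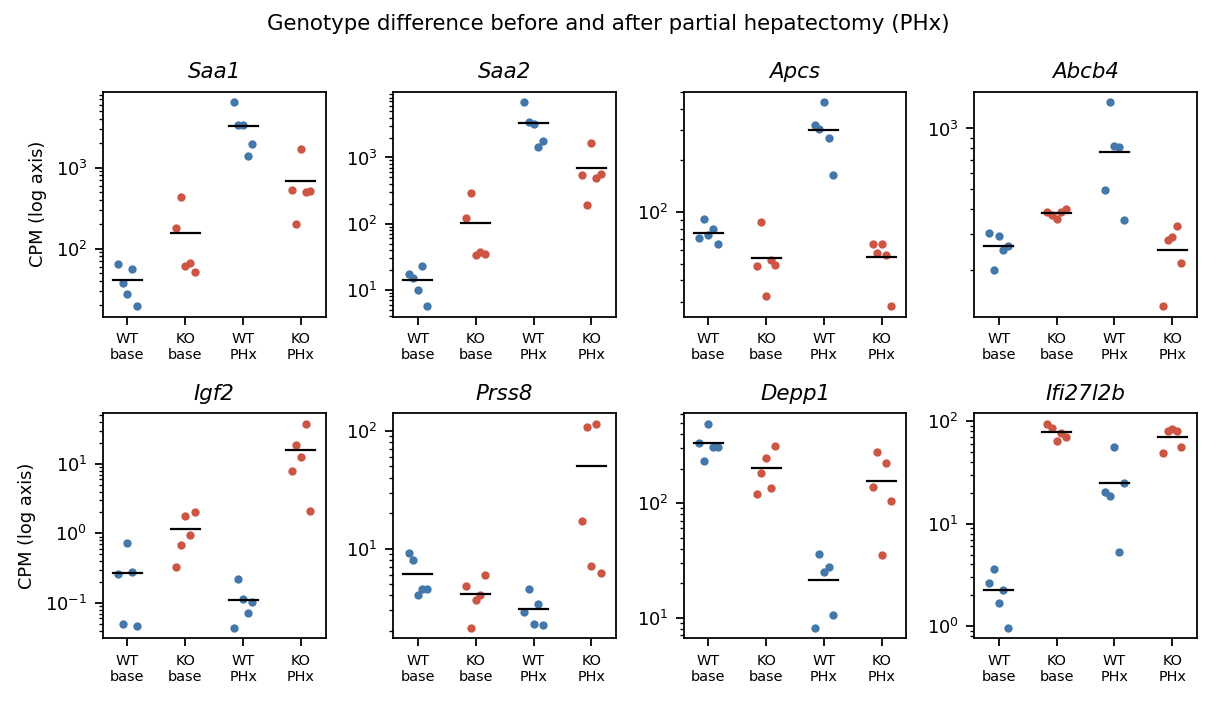
CPM on a log axis of 8 genes whose genotype effect differed between baseline and after PHx, in the 4 groups of 5 libraries; points are libraries and lines are group means (WT blue, EedHepKO red). Saa1 and Saa2 are higher in EedHepKO at baseline and lower after PHx, and Igf2, Prss8 and Depp1 separate the genotypes after PHx more than before.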

How the data were processed

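Poly(A) RNA of 20 mouse liver samples was sequenced as paired-end reads on a NovaSeq 6000 from 1000 ng of total RNA. The authors deposited raw counts per Ensembl gene for each library. Per the series' design text, fastp 0.20.0 trimmed the reads, FastQC 0.11.5 gave their quality, and unique alignments to mm10 were kept; the submitters' processing notes list Trimmomatic 0.36 and FastQC 0.11.5. The aligner, counter, annotation and strand setting are not given in the sources used here, so overlapping genes on opposite strands (such as Igf2bp1 with Gm29202, Igf2bp3 with Malsu1, Otx2 with Otx2os1, Elovl3 with Pitx3, Hsd3b5 with Zfp697 and Igf2 with Igf2os) cannot be separated. Symbols and mm10 coordinates came from GENCODE M21 (46091 of 46603 identifiers). 

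Counts were tested with edgeR 4.0.16 (R 4.3.3) after its expression filter and scaling by trimmed mean of M values, with 4 group means over 20 libraries, so that the spread is shared by all groups. Each library is a separate mouse within its group; SD is over 5 libraries. Folds against a group without counts divide the other group's mean CPM by 3 counts over the group (0.0232 CPM in WT), and intervals of that kind cover counting error only. Alternatives were fits of the 10 libraries alone, with time, DESeq2 1.42.0, limma 3.58.1 with a mouse block, other scalings and filters, and leaving out each library. The 40 h, 48 h and time-change tests came from a fit of all 20 libraries with a mean per genotype and time. They compared the means at those times, and the spread was shared by all 20 libraries.

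Named genes were Eed and PRC2 subunits, the 10 highest and 10 lowest folds and the 10 most abundant in each direction (called in both fits, groups not overlapping), up to 4 called members a list and direction by abundance, the 5 largest stage differences each way and a fixed set; further list members were named as examples. The rule gave 199 genes; for length, some of its list members and PRC2 subunits are covered by their list's counts alone, and some results are not reported here. The genes, lists and tests were chosen with earlier results of these data known. Fitting was tested on simulated counts in which 200 of 14661 genes were changed by log2 2 in EedHepKO after PHx. The main fit recovered 74.5% of them and the fit of 10 libraries 65.5%. Recovery was 34.5% at 40 h, 31.5% at 48 h and 50% for the stage difference, so many changes of that size can be missed there. Mouse numbers in the titles link 9 mice between stages; the residuals of linked samples correlated at -0.063 to 0.195. The promoter table (RefSeq, GRCm38.p6) matched 74.9% of the genes tested, below the 80% needed, so CG content was not compared between gene sets, and Igf2bp1, Pax3, Elovl3 and Sult2a1 have no window.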

Additional observations from a re-analysis of the deposited data

Results flagged for a closer look

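Of 347 groups of 5 libraries examined, 18 held 1 library flagged by the ratio of its gap to the range on the log2(CPM + 1) scale. Chance alone flags about 5% of groups, about the share seen. Within EedHepKO, replicate 11 was lowest for Hoxa10 (4.73 CPM) and Slpi (18.1 CPM), replicate 12 at 30 h was highest for Gbe1 (74.1 CPM) and Mup21 (28.2 CPM) and lowest for Apcs (28.1 CPM), replicate 8 was lowest for Bgn (64.9 CPM), and replicate 7 was lowest for C1qb (38.3 CPM) and highest for Hey1 (14.5 CPM) and Zbtb7c (14.7 CPM). Within WT, replicate 4 was highest for Iigp1, an interferon-induced GTPase (1299 CPM), Tbx15 (0.0355 CPM) and Wnt11 (0.142 CPM), and replicate 3 for 2210407C18Rik (0.0381 CPM). WT replicate 2 was highest for Serpina1a (3625 CPM) and Abcc4 (2.17 CPM), replicate 3 lowest for Serpina1e (2981 CPM), replicate 1 lowest for Sult2a1 (0 CPM), and replicate 5 highest for Hey1 (0.343 CPM). The WT flags of Tbx15, 2210407C18Rik and Sult2a1 rest on the gap between 0 and 1 count. Where all other libraries were at 0, as for Tbx15, Wnt11 and 2210407C18Rik, the rule flags any level, so these flags say nothing of distance.

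The genotype effect (EedHepKO against WT, log2) changed between 40 h and 48 h by an interaction test for the cell cycle genes Ccnb1 (-10.02) and Mcm5 (-6.03), for Cyp7a1 (-15.32), for the metabolic genes Pfkfb1 (-3.53), Kmo (-2.73) and Mlxipl (-2.65), and for Ghr (-1.77). It changed toward higher for Cd24a (4.69), Lox (5.35), Ctss (2.28) and Hbegf (5.03). Each of these rests on 2 mice per genotype and time, and without WT replicate 2, WT replicate 5, EedHepKO replicate 7 or EedHepKO replicate 10 the genes called for this change fell from 236 toward higher and 456 toward lower to 15 to 36 and 13 to 53.

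Between baseline and after PHx the effect changed toward lower for Saa2 (-5.13), Saa1 (-4.22), Apcs (-1.97), Abcb4 (-2.16), Gldn (-6.21, or -3.55 with the WT baseline group, which had no count, at 3 counts), Slpi (-3.79) and Ifi27l2b (-3.64). It changed toward higher for Igf2 (5.06), Prss8 (4.61), Igsf3 (3.92), Depp1 (3.61) and Zbtb7c (3.36). None of these 12 was called with the mouse as a block, where the adjusted p was between 0.0712 and 0.355.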

How the results depend on the processing

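The counts of genes called higher and lower after PHx were 1269 and 244 with the 10 libraries alone, 970 and 209 with time as a term, and 3897 and 296 with library size alone; DESeq2 (2670 and 1500), other size factors (2356 and 1154), both filters, limma without the block and the fit without the 30 h libraries stayed within 1.5 times. Leaving out 1 library gave 1934 to 2883 higher and 827 to 2121 lower. At 40 h the counts were 1263 and 686, with library size alone 2904 and 208, with DESeq2 1897 and 1118, and without 1 library 147 to 1625 and 77 to 912. At 48 h they were 2002 and 1565, with library size alone 3035 and 551, and without 1 library 1244 to 1952 and 797 to 2514. The change from 40 h to 48 h had 236 and 456, with library size alone 94 and 293, with DESeq2 588 and 1234, and without 1 library 15 to 1159 and 13 to 2049. The stage difference had 24 and 33, with library size alone 9 and 48, with DESeq2 187 and 178, and without 1 library 6 to 419 and 17 to 293. Pairing the stages through the replicate block of 9 mice gave 2 and 5 genes for the stage difference. The limma fit with the replicate block gave 2242 and 1374 genes after PHx, at a within-mouse correlation of 0.04. Among 178 genes followed through the fits, the block turned no call other than as limma without it did (10 of the 165 called were not called in either). The cause of these moves was not tested.

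The fits were followed for 178 genes, a set without some genes described here, such as Cacna1h, Clock, Wnt4 and Col1a2. Of the 165 of these that were called, 125 stayed called in each fit that left out 1 library and 112 with the 10 libraries alone. With time as a term 98 stayed called, with library size alone 145, and with limma and the block 155. Signs turned for uncalled genes. With limma, with and without the block, Mki67 was at log2 0.64 and 0.64, Top2a at 1.18 and 1.19, Ccnb1 at 1.14 and 1.15, and Ddx3y at -0.204 and -0.203. Without the 30 h libraries Mcm5 was at 1.17 and Top2a at 0.012; with library size alone Stab2 was at 0.15; with time as a term Ddx3y was at -0.05. Without 1 library, Mki67 ranged from -3.06 to 0.43, Top2a from -2.67 to 0.26, Ccnb1 from -3.57 to 2.06, Mcm5 from -1.94 to 0.88, Ccnd1 from -0.31 to 1.00, Cyp7a1 from -4.36 to 0.14, Lrat from -0.045 to 0.50, Stab2 from -0.44 to 0.026 and Ddx3y from -0.129 to 0.34. The fit without the 30 h libraries, limma without the block and the change between 40 h and 48 h were added after seeing the data. Depth, 21634890 to 30461351 counts, limits genes near 1 count per library; 1 or 2 mice per time limit each time point, and 5 mice per genotype cannot separate genotype from colony.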

Other observations

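Genes outside the lists were among the largest changes in genes called in both fits. Slc15a1, the intestinal peptide transporter, had no WT count and was at 0.0947, 0.687, 28.6, 2.82 and 7.75 CPM in the EedHepKO libraries, at least 345-fold higher over the group, and was high in 1 library at 40 h, EedHepKO replicate 11, without which it was at least 123-fold higher. The uncharacterised gene 2210407C18Rik was at 0, 0, 0.0381, 0 and 0 CPM in the WT libraries and 0.284, 0.534, 10.2, 69 and 15.3 CPM in the EedHepKO libraries (log2 10.57, SE 1.86, adjusted p = 0.000746), with most of its counts in the 48 h replicate 7. Fitm1, a lipid droplet protein of muscle, fell from 8.75 ± 4.5 CPM in WT to 0.644 ± 0.637 CPM in EedHepKO (log2 -3.77, SE 0.52, adjusted p = 3.89e-05), and no EedHepKO library overlapped with WT. Zbtb7c and Gldn, called higher after PHx, had WT means of 1.95 and 0.573 CPM and EedHepKO means of 7.05 and 19.6 CPM.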
